A study of Homo sapiens with 6 samples.

Results

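The 8 genes that encode the subunits of the TRiC chaperonin, TCP1, CCT2, CCT3, CCT4, CCT5, CCT6A, CCT7 and CCT8, were read out by RNA sequencing in HCT116 cells, a human colon carcinoma line. The genes were taken by symbol from a table of 35106 genes. All 8 were present, and all 8 were among the 13718 genes with enough counts to be tested. The curcumin group held 3 libraries from cells given 30 µM curcumin, the yellow polyphenol of turmeric, for 24 h (the labels write the unit as micrometres). The untreated group held 3 libraries from cells whose treatment label is none. The labels mention no vehicle for the untreated cells. Both groups carry the genotype label WT and come from 1 cell line. Separate cultures are not described for the replicates, so p-values here cover the variation among 6 libraries that may be technical repeats.

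TRiC, also called CCT, is the cytosolic chaperonin of eukaryotes. It is a pair of stacked rings, each built from a single copy of every subunit, and it closes over an unfolded protein when it hydrolyses ATP. Actin and tubulin reach their native fold in it, often after delivery by the co-chaperone prefoldin, and so do many beta-propeller proteins. In yeast the subunits differ in how they use ATP: those corresponding to TCP1, CCT2, CCT4 and CCT5 bind it tightly, and those corresponding to CCT3, CCT6A, CCT7 and CCT8 bind it weakly.

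The libraries held 16663562 to 17893056 counts in curcumin-treated cells and 18154380 to 20311769 in untreated cells. After curcumin more of each library lay in few genes: the top 100 held 39.9 to 43.3% of counts after curcumin and 18.9 to 22.7% in untreated cells. Levels below are in CPM, the count scaled to a fixed library total after TMM, a method that scales libraries on the bulk of their genes. The TMM factors were 0.716 to 0.804 in curcumin and 1.30 to 1.34 in untreated libraries. With library size alone, the median log2 fold change of all tested genes moved by −0.805, so each change is stated against the rest of the transcripts. In bulk RNA, a change in RNA per cell and a change in the number of cells that carry a transcript cannot be told apart. Of 7 markers of colon epithelium, 5 were tested, and the summed level of the 7 was 7197 to 8446 CPM after curcumin and 3760 to 4458 CPM in untreated cells. KRT8 alone had 4653 ± 294 CPM after curcumin and 1942 ± 199 CPM in untreated cells. CDX1 and VIL1 were not tested, at 0.026 and 0.525 CPM after curcumin and 0 and 0.204 CPM in untreated cells. CDH1 was not called (edgeR adjusted p = 0.456). The 10 markers of other cell types summed to 42.6 to 101 CPM after curcumin and 29.4 to 35.7 CPM in untreated cells. Of these, CD3E was at 0 in all 6 libraries, while CD68, PECAM1 and GFAP rose (edgeR adjusted p = 4.38e-05, 3.57e-05 and 0.0229, the last lost without curcumin replicate 1 or untreated replicate 1 or 2), PECAM1 to 14.9 ± 9.32 CPM after curcumin against 0.0935 ± 0.0828 CPM in untreated cells. Their part in the results below was not tested.

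All 8 subunit transcripts rose after curcumin under TMM scaling (edgeR quasi-likelihood test, adjusted p under 0.05). TCP1 stood at the top with a 6.51-fold rise, CCT2 at the bottom with a 1.44-fold rise, and the other 6 lay between 2.02-fold (CCT7) and 2.85-fold (CCT4). The median log2 fold change of the 8 was 1.24, against −0.04 over all genes tested. Of all genes tested, 27.2% were called higher. The groups of libraries did not overlap for any of the 8 subunits, a pattern that 30.9% of tested genes showed in the same direction.

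**Figure D1:**
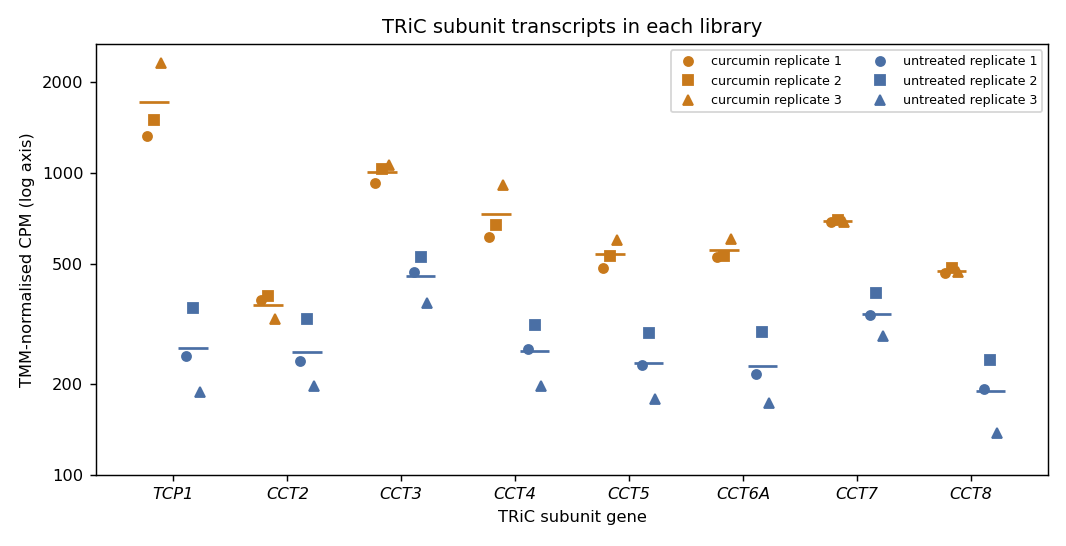
TMM-normalised CPM (log axis) of each TRiC subunit gene in the 3 curcumin libraries and the 3 untreated libraries; each point is a library and each bar a group mean. The curcumin points lie above the untreated points for all 8 genes, by a wide gap for TCP1 (1324 to 2322 CPM against 188 to 356 CPM) and by the narrowest for CCT2 (329.0 to 390.2 CPM against 198 to 328.2 CPM).

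Among the subunits that bind ATP tightly in yeast, TCP1 changed most. TCP1 (ENSG00000120438, chromosome 6, 159778498 to 159789749 on GRCh38, 12 exons in its longest protein-coding transcript) encodes the alpha subunit. It had 1324, 1499.7 and 2322 CPM in curcumin replicates 1, 2 and 3, against 247, 356 and 188 CPM in untreated replicates 1, 2 and 3. Curcumin replicate 3 was the highest library and untreated replicate 3 the lowest, and the lowest treated library was above the highest untreated one. The log2 fold change was 2.70 ± 0.28 (SE; edgeR adjusted p = 4.23e-05), a value that 2.63% of all tested genes reached or passed. TCP1 was also higher with no factor beyond library size (1.88 ± 0.25, edgeR adjusted p = 4.77e-05).

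CCT4 (ENSG00000115484, chromosome 2, 61868089 to 61888804), the delta subunit, followed. It had 615, 674 and 911 CPM in curcumin replicates 1 to 3, against 261, 314 and 196 CPM in untreated replicates 1 to 3. As for TCP1, curcumin replicate 3 lay well above the other curcumin libraries. Its log2 fold change was 1.51 ± 0.21 (edgeR adjusted p = 0.000221), and 0.69 ± 0.19 with library size alone (adjusted p = 0.00755). CCT5 (ENSG00000150753, chromosome 5, 10249921 to 10266412), the epsilon subunit, had 486, 529 and 598 CPM in curcumin replicates 1 to 3, against 231, 296 and 179 CPM in untreated replicates 1 to 3. The groups lay apart, and the log2 fold change was 1.19 ± 0.19 (edgeR adjusted p = 0.000509).

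CCT2 (ENSG00000166226, chromosome 12, 69585334 to 69601570), the beta subunit, had 380.0, 390.2 and 329.0 CPM in curcumin replicates 1 to 3, against 238, 328.2 and 198 CPM in untreated replicates 1 to 3. Curcumin replicate 3 was here the lowest treated library, and it lay just above untreated replicate 2. The log2 fold change was 0.52 ± 0.19 (edgeR adjusted p = 0.0371). The test no longer called it when curcumin replicate 1 or 2 was left out (adjusted p = 0.0936 and 0.13), without untreated replicate 1 or 3 (0.127 and 0.137), once each library's trend with transcript length was taken out (0.24, adjusted p = 0.307), and when the top 100 genes were kept out of the library total (0.17, adjusted p = 0.464). In the last setting the other 7 were called, where 18.4% of all genes were. With library size alone CCT2 had 305, 293 and 235 CPM in curcumin replicates 1 to 3, against 309.8, 439.9 and 262 CPM in untreated replicates 1 to 3. The groups then overlapped and the sign turned (−0.28 ± 0.20, edgeR adjusted p = 0.235).

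Among the subunits that bind ATP weakly in yeast, the fold changes lay close together. CCT3 (ENSG00000163468, chromosome 1, 156308968 to 156367873), the gamma subunit, had the highest untreated level of the 8. It had 926, 1030.0 and 1062 CPM in curcumin replicates 1 to 3, against 469.9, 527 and 372 CPM in untreated replicates 1 to 3, a log2 fold change of 1.14 ± 0.16 (edgeR adjusted p = 0.000255). CCT6A (ENSG00000146731, chromosome 7, 56051630 to 56063989), the zeta subunit, had 525, 533 and 606 CPM in curcumin replicates 1 to 3, against 215, 297 and 173 CPM in untreated replicates 1 to 3 (1.28 ± 0.20, edgeR adjusted p = 0.000408). In both genes untreated replicate 2 was the highest untreated library and still lay under every treated library.

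CCT7 (ENSG00000135624, chromosome 2, 73233420 to 73253021), the eta subunit, was nearly level across the curcumin libraries, at 687, 696 and 689 CPM in replicates 1 to 3, against 338, 399 and 288 CPM in untreated replicates 1 to 3 (1.02 ± 0.15, edgeR adjusted p = 0.000345). CCT8 (ENSG00000156261, chromosome 21, 29055805 to 29073797), the theta subunit, was likewise level after curcumin, at 467, 485 and 469.7 CPM in replicates 1 to 3, against 192, 240.1 and 137 CPM in untreated replicates 1 to 3 (1.32 ± 0.19, edgeR adjusted p = 0.000307). Both groups of each gene lay apart under TMM scaling.

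How many subunits were called depended on the scaling. With library size alone 3 of the 8 were higher, TCP1, CCT4 and CCT8 (0.51 ± 0.20, edgeR adjusted p = 0.0358), where 9.62% of all genes tested were called higher and 56.5% lower. The median of the 8 on the log2 scale was 0.42 then, against −0.84 over all genes tested, and the groups did not overlap for 5 of the 8, where 11.8% of all genes had no overlap in that direction. CCT3, CCT5, CCT6A and CCT7 were not called (0.33, 0.38, 0.47 and 0.21; adjusted p = 0.0855, 0.0894, 0.0506 and 0.264). After removal of the length trend, 7 of the 8 were higher, where 26.3% of genes were called higher. A test against a fold of 2 called TCP1 and CCT4 (adjusted p = 0.000576 and 0.0292), where 8.0% of genes were called higher.

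**Figure D2:**
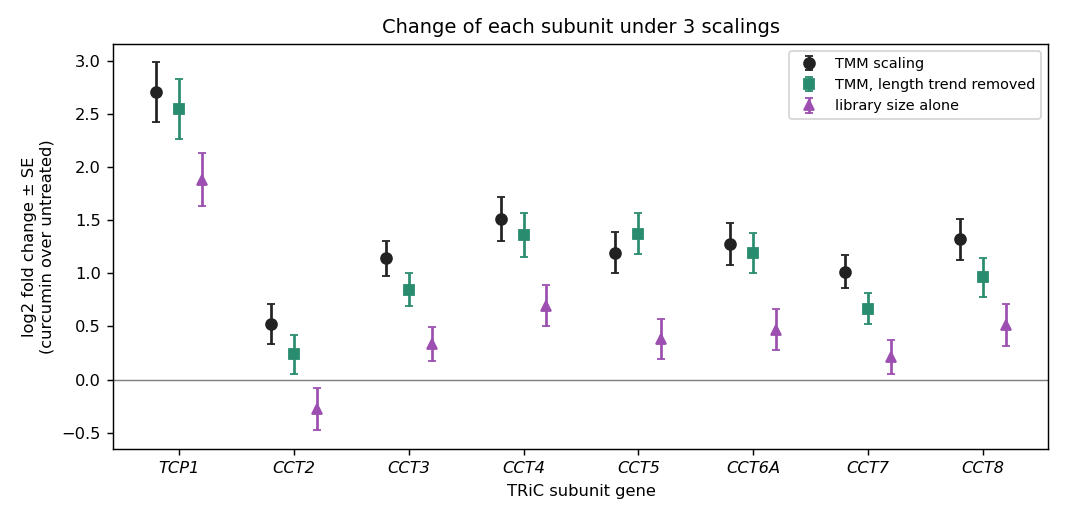
Log2 fold change of each subunit, curcumin over untreated, with its standard error, under TMM scaling, under TMM with each library's length trend removed, and with library size alone. TCP1 is the highest under all 3 (2.70, 2.54 and 1.88) and CCT2 the lowest (0.52, 0.24 and −0.28).

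The untreated libraries kept the same order across the subunits, and the curcumin libraries did not. Curcumin replicate 3 was the highest treated library for 5 genes and the lowest for 1, CCT2, and curcumin replicate 2 was the highest for the other 3. Untreated replicate 2 was the highest untreated library for 8 of the 8 genes, and untreated replicate 3 the lowest for 8 of the 8. On the log2 scale, curcumin replicate 3 exceeded the mean of the other curcumin libraries by 0.72 for TCP1 and 0.50 for CCT4. It lay within 0.24 of that mean for the other 6, from −0.23 for CCT2 to 0.24 for CCT5. The same library exceeded the other curcumin libraries by 0.71 for HSPA8, an HSP70, 0.80 for HSP90AB1, an HSP90, and 0.75 for DNAJA1, an HSP40. Untreated replicate 2 likewise exceeded the other untreated libraries, by 1.28 for HSPA8, 0.74 for HSP90AB1 and 0.78 for DNAJA1. This excess was not confined to chaperones: the beta-tubulin TUBB had 1178 CPM in untreated replicate 2, beside 574 and 579 CPM in untreated replicates 1 and 3. The serine-synthesis gene PSPH went the other way, at 36.1 CPM in untreated replicate 2 beside 58.9 and 56.4 CPM in untreated replicates 1 and 3. For HSP90AA1, another HSP90, curcumin replicate 3 stood less apart, at 3373 CPM beside 3074 and 3042 CPM in curcumin replicates 1 and 2. Its part in the rise of TCP1 and CCT4 was measured by leaving it out, which gave 2.43 for TCP1 and 1.33 for CCT4. Without both curcumin replicate 3 and untreated replicate 2, a setting chosen after seeing the data, all 8 subunits were called higher, where 29.6% of all genes were (TCP1 by 2.70 ± 0.16). That choice fixed a larger value for CCT2 (0.82 ± 0.13), since it takes out its lowest treated and its highest untreated library.

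Since the complex holds its subunits in equal number, the balance between them was set out within each library, where scaling between libraries cancels. Per kilobase of the longest protein-coding transcript (2005 to 3675 bases), TCP1 made up 23.3, 24.5 and 32.1% of the summed subunit level in curcumin replicates 1 to 3, against 10.6, 12.2 and 10.2% in untreated replicates 1 to 3. Its mean share was thus 26.6 ± 4.78% after curcumin and 11.0 ± 1.07% in untreated cells (SD, n = 3). CCT2 made up 6.70 ± 1.32% after curcumin and 12.2 ± 0.589% in untreated cells. CCT3 and CCT7 also held smaller shares after curcumin: 18.5 ± 1.30% after curcumin and 22.6 ± 1.40% in untreated cells for CCT3, and 13.5 ± 1.63% after curcumin and 17.9 ± 1.19% in untreated cells for CCT7. CCT5, whose longest transcript is the longest of the set, held 5.77 ± 0.131% after curcumin and 6.74 ± 0.151% in untreated cells. The groups did not overlap for these 5 subunits, and they overlapped for CCT4, CCT6A and CCT8. The shares sum to a fixed total, so the gain of TCP1 by itself lowers the others. Among the 7 subunits other than TCP1, a comparison added after seeing the data, CCT2 held 9.08 ± 1.25% after curcumin and 13.8 ± 0.801% in untreated cells, again with no overlap. There CCT3 held 25.2 ± 0.619% after curcumin and 25.4 ± 1.29% in untreated cells, and CCT5 held 7.88 ± 0.363% after curcumin and 7.57 ± 0.257% in untreated cells. The groups overlapped for both, and also for CCT6A and CCT7. CCT4 held 15.6 ± 2.42% after curcumin and 12.1 ± 0.323% in untreated cells, and CCT8 held 12.8 ± 0.756% after curcumin and 11.2 ± 0.734% in untreated cells, with no overlap for either.

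**Figure D3:**
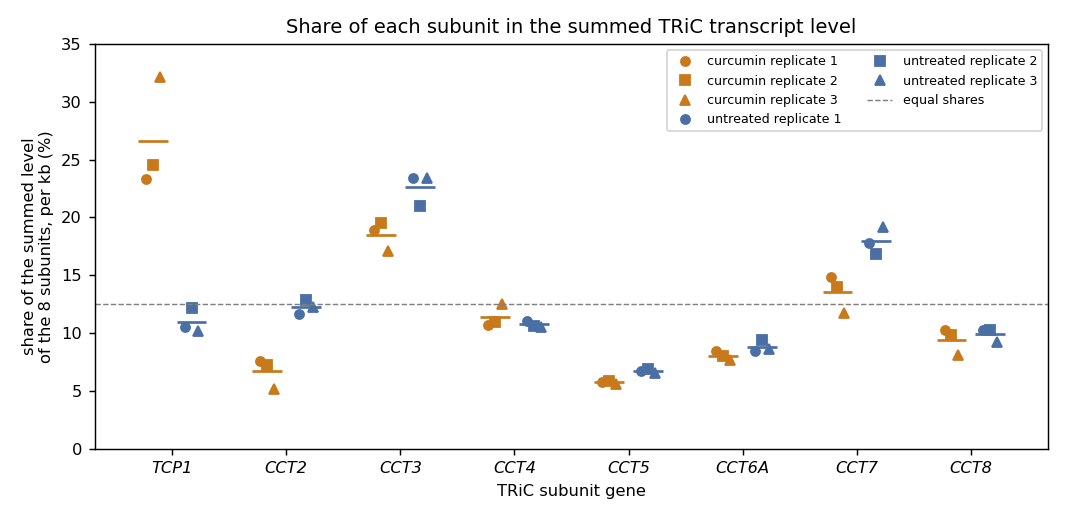
Share of each subunit (%) in the summed level per kilobase of the 8 subunits, for the 3 curcumin and 3 untreated libraries; points are libraries, bars group means, and the dashed line marks equal shares. TCP1 lies at 23.3 to 32.1% after curcumin and 10.2 to 12.2% in untreated cells, while CCT2 lies at 5.19 to 7.63% after curcumin and 11.7 to 12.8% in untreated cells.

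With the longest transcript as the length, the order of the levels per kilobase differed between the groups. After curcumin TCP1 came first at 686 ± 213 CPM per kb (SD, n = 3), followed by CCT3 at 468 ± 33.0, CCT7 at 340.1 ± 2.33, CCT4 at 291 ± 62.2, CCT8 at 236 ± 4.74, CCT6A at 204 ± 16.5, CCT2 at 167 ± 14.98 and CCT5 at 146 ± 15.4. Among these neighbours, CCT7 and CCT4 overlapped, as did CCT2 and CCT5. In untreated cells CCT3 came first at 212 ± 36.5 CPM per kb, followed by CCT7 at 168 ± 27.5, CCT2 at 116 ± 30.5, TCP1 at 105 ± 34.1, CCT4 at 102 ± 23.3, CCT8 at 94.6 ± 25.7, CCT6A at 84.0 ± 23.3 and CCT5 at 64.0 ± 15.9. There every pair of neighbours overlapped between libraries, although 6 of the 7 neighbour pairs kept their order within 3 of 3 libraries, all but TCP1 and CCT4. With the median transcript length the order after curcumin was TCP1, CCT3, CCT7, CCT4, CCT5, CCT8, CCT6A and CCT2, and in untreated cells CCT3, TCP1, CCT7, CCT2, CCT5, CCT4, CCT8 and CCT6A. The highest subunit was 4.01, 4.17 and 6.18 times the lowest in curcumin replicates 1 to 3, against 3.47, 3.05 and 3.55 times in untreated replicates 1 to 3. Before scaling, the 8 genes together took 0.435, 0.439 and 0.5% of all counts in curcumin replicates 1 to 3, against 0.285, 0.370 and 0.230% in untreated replicates 1 to 3.

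Ratios of counts between subunits within a library were taken for all 28 pairs, with no length entering. The log2 ratio of TCP1 to CCT2 was 2.19 ± 0.55 after curcumin and 0.03 ± 0.10 in untreated cells (SD, n = 3), a difference of 2.16. TCP1 gained against each of the other 7 subunits, by 1.19 (over CCT4) to 2.16, and CCT2 lost against each of the other 7, by 0.48 (to CCT7) to 2.16. In these pairs the groups did not overlap. Over all pairs this held for 19 of 28, each with the smallest two-sided exact permutation p that 3 against 3 libraries allow, 0.1 (0.147 adjusted over the 28 pairs), so no pair could pass 0.05. The pairs share subunits and are not independent, and pairs of other genes were not taken for comparison. Of the 10 pairs without TCP1, CCT2 or CCT4, 3 did not overlap: CCT6A gained 0.09 on CCT5 and 0.28 on CCT7, and CCT8 gained 0.33 on CCT7. For CCT6A and CCT5 the groups all but touched, with a log2 ratio of 0.01 in both curcumin replicate 2 and untreated replicate 2.

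The genes that start beside the subunit genes were looked at next, since several subunit genes have a divergent neighbour, a gene on the opposite strand whose 5′ end lies within 1000 bases. GENCODE 29 gives 1 for 6 of the 8, and 5 of these neighbours were in the count table. TCP1 and MRPL18, a protein of the large subunit of the mitochondrial ribosome, start 62 bases apart. The letters between the GENCODE starts are shown for TCP1 and, as a pair whose partner was not called under TMM scaling, for CCT7 and PRADC1. They come from RefSeq promoter windows of GRCh38.p14, on the strand of the subunit gene, those for CCT7 from the window of PRADC1, since RefSeq starts CCT7 further downstream. Capitals mark matches to the motifs named below.
TCP1 to MRPL18 (chr6:159789750-159789811, minus strand): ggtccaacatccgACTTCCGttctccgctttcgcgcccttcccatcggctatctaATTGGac
CCT7 to PRADC1 (chr2:73233239-73233419, plus strand): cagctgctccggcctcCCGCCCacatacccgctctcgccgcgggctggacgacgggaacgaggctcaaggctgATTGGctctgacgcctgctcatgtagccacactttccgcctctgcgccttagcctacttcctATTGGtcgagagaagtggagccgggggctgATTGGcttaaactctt

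MRPL18 rose as TCP1 did. It had 198, 248 and 388 CPM in curcumin replicates 1 to 3, against 39.5, 54.6 and 29.9 CPM in untreated replicates 1 to 3, a log2 fold change of 2.75 ± 0.29 (edgeR adjusted p = 4.34e-05). It shared the library pattern of TCP1, with curcumin replicate 3 highest and untreated replicate 3 lowest. The log2 ratio of MRPL18 to TCP1 was −2.74, −2.60 and −2.58 in curcumin replicates 1 to 3, against −2.64, −2.70 and −2.65 in untreated replicates 1 to 3. The groups overlapped, and the means differed by 0.03 (two-sided exact permutation p = 0.6). After removal of the length trend, MRPL18 rose by 1.78 ± 0.28 and TCP1 by 2.54 ± 0.28. The bodies of the 2 genes do not overlap in GENCODE 29. For genes that do overlap, the labels do not say whether reads were counted by strand.

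The other 4 partners did not keep pace with their subunit genes. COMMD1, a copper-metabolism domain protein whose first bases overlap those of CCT4, had 9.43 ± 1.75 CPM after curcumin and 5.95 ± 0.649 CPM in untreated cells (log2 0.66 ± 0.25, edgeR adjusted p = 0.0415; the call was lost without curcumin replicate 1 or 2 or untreated replicate 1 or 3, with no filter, and with the top 100 genes out of the library total). It had the opposite sign and no call after taking out the length trend (−0.40, edgeR adjusted p = 0.184) and with library size alone (−0.13, edgeR adjusted p = 0.676). PSPH, phosphoserine phosphatase of serine synthesis, 25 bases from CCT6A, had 37.5 ± 1.99 CPM after curcumin and 50.5 ± 12.5 CPM in untreated cells (edgeR adjusted p = 0.0875). PSPH was called lower after taking out the length trend (−0.72, edgeR adjusted p = 0.0131). With library size alone it was also lower (−1.24, edgeR adjusted p = 0.00021), where 56.5% of all genes were. The same call came with the top 100 genes out of the library total, with no filter, and without untreated replicate 2 (edgeR adjusted p = 0.00595, 0.0335 and 0.00729). ATPSCKMT, a lysine methyltransferase of the ATP synthase c subunit, 23 bases from CCT5, had 3.74 ± 1.81 CPM after curcumin and 5.60 ± 0.739 CPM in untreated cells (edgeR adjusted p = 0.237). ATPSCKMT was called lower with library size alone (−1.37, edgeR adjusted p = 0.0104). PRADC1, 181 bases from CCT7, had 7.16 ± 1.29 CPM after curcumin and 6.22 ± 1.12 CPM in untreated cells (edgeR adjusted p = 0.54). PRADC1 was called lower after taking out the length trend (−0.69, edgeR adjusted p = 0.0474). The log2 ratio of partner to subunit gene was lower after curcumin than in untreated cells for all 4, by −0.87 (COMMD1), −1.94 (ATPSCKMT), −1.71 (PSPH) and −0.83 (PRADC1), with no overlap between the groups (exact permutation p = 0.1 for each, the smallest possible).

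**Figure D4:**
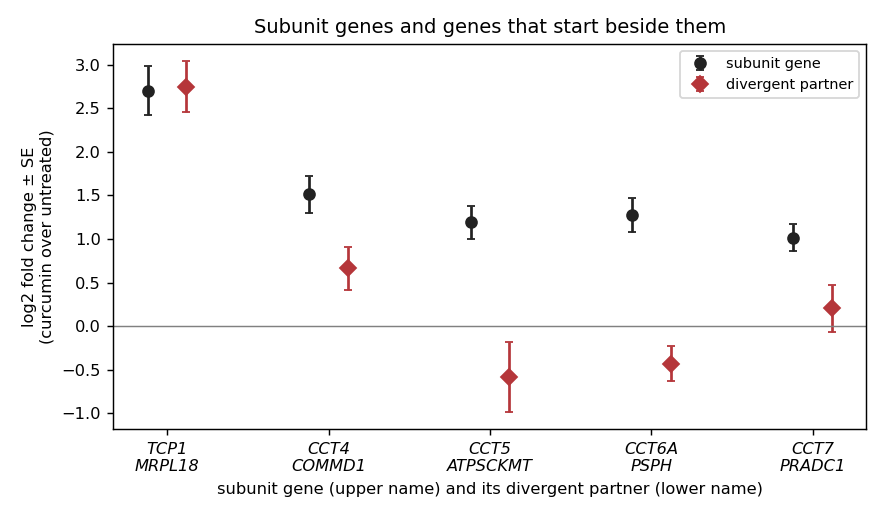
Log2 fold change (curcumin over untreated) with its standard error for 5 subunit genes, as circles, and for the gene that starts beside each on the opposite strand, as diamonds. MRPL18 lies beside TCP1 (2.75 and 2.70), while the other 4 partners lie under their subunit genes.

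The RefSeq table held 9 promoter windows of 300 bases (250 before the start, 50 after) for 7 of the 8 genes. CCT6A had no entry. On both strands, the paired heat shock element GAANNTTC was found in 1 window each of TCP1 and CCT2 and in 6.77% of all 35116 windows, and TTCNNGAA in 1 window of CCT4 and in 7.74% of all. The heat shock element of 3 units was in none of the 9 windows and in 0.49% of all. These sites are shown because heat shock factors bind such repeats in heat shock genes. A match describes letters and not binding. The matches within the windows began 231 bases before the RefSeq start of TCP1, 89 before the downstream of the 2 RefSeq starts of CCT2, and 38 after the downstream of the 2 of CCT4. By the GENCODE starts, the TCP1 match lies past the start of MRPL18, within that gene. Those of CCT2 and CCT4 lie past the GENCODE starts of their own genes.
TCP1 (chr6:159789815-159789844, minus strand): tcgtttgaggcGAAGGTTCaacctcttccc
CCT2 (chr12:69585789-69585818, plus strand): cccggagcgaaGAAATTTCtagtgtgggac
CCT4 (chr2:61888600-61888629, minus strand): ccggcgccgctTTCTGGAAggttcgtgaag
Capitals mark the match found within a window, so the rest of the longer CCT4 element stands in lower case. In the CCT4 letters, the last GAA in capitals and the lower-case letters after it match the heat shock element of 3 units. That match runs past the edge of the CCT4 window and so was not counted among the 9 windows. Whether these matches bear on the fold changes was not tested. The antioxidant response core TGACNNNGC matched in CCT4 only among the 7 genes (13.35% of all windows). CCAAT matched in CCT2, CCT3, CCT8 and TCP1 (34.6% of all windows) and GGGCGG in CCT2, CCT3, CCT7, CCT8 and TCP1 (44.95%). The CCT7 window lies downstream of the CCT7 to PRADC1 letters shown above. Their ATTGG matches, CCAAT on the other strand, are therefore not counted for CCT7. ACTTCCG, the core bound by ETS factors, matched in CCT2, CCT7 and TCP1 (6.83%). The E-box CACGTG (7.26%) and the NRF1 element (1.24%) matched in none.

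Near-identical copies can take or lend reads, and how the authors shared such reads is not stated. The table held 14 pseudogenes of the subunits, of which 12 had 6 counts or fewer in each library. CCT6P1, a pseudogene related to CCT6A, had 110, 77 and 152 counts in curcumin replicates 1 to 3, against 29, 39 and 39 counts in untreated replicates 1 to 3 (log2 2.62 ± 0.36, edgeR adjusted p = 0.000206). CCT6P3 had 52, 69 and 71 counts in curcumin replicates 1 to 3, against 85, 63 and 77 counts in untreated replicates 1 to 3 (0.75 ± 0.33, edgeR adjusted p = 0.072). With the counts of all copies added to their parent genes, CCT6A rose by 1.29 ± 0.20, in place of 1.28, and the others moved by less. CCT6B, a paralog of CCT6A known from testis, had 42, 40 and 21 counts in curcumin replicates 1 to 3, against 35, 29 and 25 counts in untreated replicates 1 to 3 (edgeR adjusted p = 0.0536). CCT8L2 was listed at 0 in all 6 libraries. ACAT2, a cholesterol-pathway acetyltransferase whose gene overlaps the 3′ end of TCP1 on the opposite strand, had 43.3 ± 3.52 CPM after curcumin and 26.9 ± 13.7 CPM in untreated cells (edgeR adjusted p = 0.0764).

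Prefoldin, which hands proteins to TRiC, and genes related to it or to phosducin moved in part. Prefoldin and phosducin-like genes, with the prefoldin-related URI1, UXT and PDRG1, made a list of 13, of which 11 were tested. Of these, 6 rose and 0 fell (edgeR), where 27.2% of all genes were higher and 28.9% lower, and their median was 0.64 on the log2 scale (0.13 after removal of the length trend). PFDN6 and PDCL2 were listed at 0 in all 6 libraries. The prefoldin subunit PFDN5 had 173, 215 and 230.0 CPM in curcumin replicates 1 to 3, against 57.2, 54.0 and 50.4 CPM in untreated replicates 1 to 3 (1.94 ± 0.15, edgeR adjusted p = 1.45e-05). UXT rose by 1.83 ± 0.17 (edgeR adjusted p = 2.34e-05). After removal of the length trend both were still called, PFDN5 at 0.81 and UXT at 0.52 (edgeR adjusted p = 0.00163 and 0.0254). Under TMM scaling PFDN2, PFDN4, VBP1 and PDRG1 rose too, VBP1 with no call without curcumin replicate 2 or untreated replicate 3 (adjusted p = 0.0556 and 0.0516). The phosducin-like genes PDCL, PDCL3 and TXNDC9, modulators of TRiC folding, were not called. With library size alone 5 of the 11 rose and 4 fell, where 9.62% of all genes were higher and 56.5% lower.

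Clients were listed from what is known of TRiC, 25 genes in all: 8 rose and 4 fell, and their median was 0.09 on the log2 scale, where 27.2% of all genes were called higher and 28.9% lower. The beta-tubulin TUBB2A had 154, 161 and 230 CPM in curcumin replicates 1 to 3, against 46.6, 68.4 and 44.0 CPM in untreated replicates 1 to 3 (1.78 ± 0.22, edgeR adjusted p = 0.000111). The other tubulins of the list were not called. The histone deacetylase HDAC3 rose by 0.998 ± 0.13, with no call under library size alone (0.20, edgeR adjusted p = 0.278). The cytoplasmic actins ACTB and ACTG1 rose by 0.73 ± 0.21 and 0.56 ± 0.18 (edgeR adjusted p = 0.013 and 0.0239), with no call and the opposite sign under library size alone (−0.08 and −0.25, adjusted p = 0.749 and 0.212). Without curcumin replicate 2 or untreated replicate 1 neither actin was called (adjusted p from 0.0505 to 0.0883), and ACTG1 was not called without curcumin replicate 3 or untreated replicate 3 either (0.0677 and 0.0741). With the trend with length taken out, neither was called (0.33 and 0.30, adjusted p = 0.199 and 0.187). The tumour suppressor VHL had 18.2 ± 4.92 CPM after curcumin and 71.2 ± 11.5 CPM in untreated cells (−1.96 ± 0.22, edgeR adjusted p = 6.18e-05). FZR1, the CDH1 activator of the anaphase-promoting complex, fell by 1.36 ± 0.18. Scaled by library size alone, 1 client rose and 15 fell, beside 9.62% and 56.5% of all genes, and without curcumin replicate 2 there were 5 that rose.

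The relatives of TRiC went both ways. HSPD1 and HSPE1, the mitochondrial chaperonin and its lid, rose: HSPE1 had 166, 178 and 217 CPM in curcumin replicates 1 to 3, against 31.1, 51.0 and 19.9 CPM in untreated replicates 1 to 3 (2.46 ± 0.30, edgeR adjusted p = 0.000102), and HSPD1 rose by 1.15 ± 0.21 (edgeR adjusted p = 0.00112; 0.34 and no call with library size alone, adjusted p = 0.163). The chaperonin-like genes of Bardet-Biedl syndrome split. BBS10 had 4.35 ± 1.45 CPM after curcumin and 19.4 ± 6.52 CPM in untreated cells (−2.15 ± 0.33, edgeR adjusted p = 0.000384). BBS12 had 1.11 ± 0.991 CPM after curcumin and 3.95 ± 0.531 CPM in untreated cells (−1.83 ± 0.61, edgeR adjusted p = 0.0268), a call lost without curcumin replicate 1 or untreated replicate 1 or 3. MKKS rose by 0.54 ± 0.20 (edgeR adjusted p = 0.043). That call was lost without curcumin replicate 1 or 2 or untreated replicate 2 or 3, and the sign turned with library size alone (−0.26, edgeR adjusted p = 0.312). In all, 3 of the 5 relatives rose and 2 fell, where 27.2% of all genes were higher and 28.9% lower. With library size alone 1 rose and 2 fell, where 9.62% of all genes were higher and 56.5% lower.

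Heat shock genes rose with 1 exception. In a list of 11 factors and chaperones 10 were higher and HSF2 was lower, where 27.2% of all genes were higher and 28.9% lower. Under library size alone 8 were higher, where 9.62% of all genes were, and HSF1 was not called (0.21, edgeR adjusted p = 0.294). The list's median under TMM scaling was 3.11 on the log2 scale, also with HSPA1B, at 0 in untreated cells, set at its bound of at least 56.2-fold (3 counts per untreated library). BAG3, a co-chaperone of HSP70, and DNAJB1, an HSP40, rose by 3.66 ± 0.24 and 3.25 ± 0.22 (edgeR adjusted p = 1.14e-05 and 1.15e-05). HSF1, the main heat shock factor, had 308.5, 310.0 and 245 CPM in curcumin replicates 1 to 3, against 143, 128 and 158 CPM in untreated replicates 1 to 3 (1.01 ± 0.15, edgeR adjusted p = 0.000361). HSF2 fell by 0.85 ± 0.18 (edgeR adjusted p = 0.00309).

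**Figure D5:**
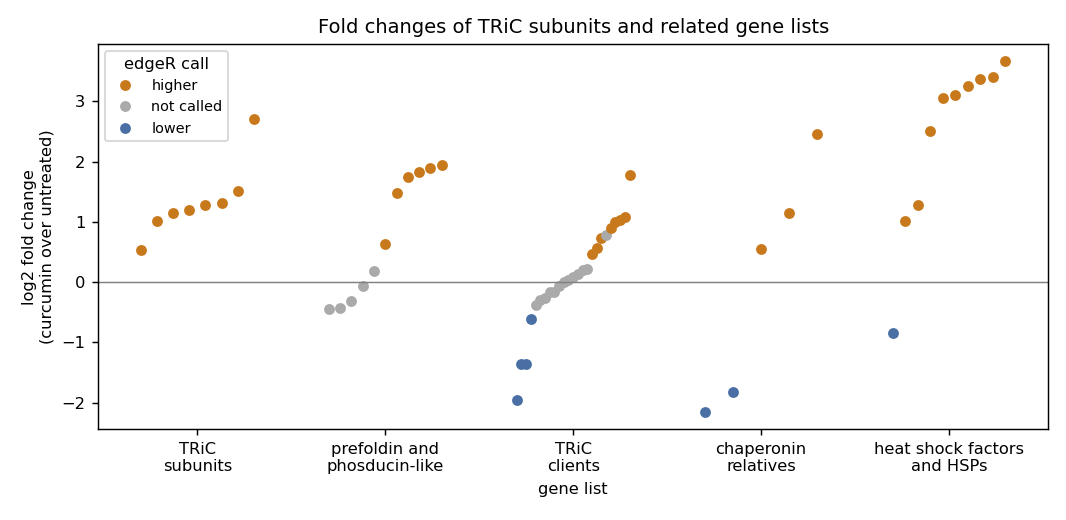
Log2 fold change (curcumin over untreated, TMM scaling) of the tested genes of 5 lists, coloured by the edgeR call at an adjusted p under 0.05; each point is a gene, ordered by value within its list, and HSPA1B is left out because it had 0 counts in untreated cells. All 8 TRiC subunits are higher, TCP1 apart from the rest at 2.70, while the 25 clients spread to both sides of 0.

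The genes whose profile over the 6 libraries lay closest to the mean centred profile of the 8 subunits were sought among 3594 genes of at least 50 CPM. The 5 closest by root mean square distance on the log2 scale were PSMD4 (0.058), PSMB4 (0.061), NRGN (0.068), NABP2 (0.069) and PPP1R14B (0.070). PSMD4 and PSMB4 are proteasome subunits, NRGN encodes neurogranin, NABP2 a single-stranded DNA binding protein and PPP1R14B a phosphatase 1 inhibitor. PSMD4 had 269, 279 and 292 CPM in curcumin replicates 1 to 3, against 118, 139 and 90.5 CPM in untreated replicates 1 to 3, a log2 fold change of 1.28 ± 0.17. The choice by profile fixes that these genes are higher after curcumin, by 1.22 (NRGN) to 1.34 (NABP2) on the log2 scale, and it rests on the scaling: the median of the 5 was 0.47 with library size alone and 0.51 after removal of the length trend.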

How the data were processed

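The authors deposited 1 table of expected counts per gene, that is, estimated read counts that need not be whole, with no scaling between libraries. Libraries were made with a SMARTer mRNA-Seq kit, per the labels' protocols. Aligner, counter and strand setting: not given in the sources used here. Mouse builds, GRCm38 and mm10, stand in the submitters' processing notes, while all 35106 identifiers are human and 0 are mouse, and 35003 were found in GENCODE 29 (GRCh38), which gave positions, lengths and exons. Counts were rounded (by at most 0.5), filtered (edgeR's filterByExpr, with a count of at least 10 and a total of at least 15), TMM-scaled and tested with edgeR 4.0.16 (quasi-likelihood, R 4.3.3) over all 6 libraries, with Benjamini-Hochberg adjustment over 13718 genes and a threshold of 0.05. Means are ± SD (n = 3) and fold changes ± SE. A floor of 3 counts was 0.224 to 0.238 CPM in curcumin and 0.114 to 0.123 CPM in untreated libraries and covers counting error only. Replicates differed beyond sampling noise (chi-square per degree of freedom 11.1 to 71.2). The test was checked on simulated counts.

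Genes named are the 8 subunits, their paralogs, pseudogenes, divergent and overlapping neighbours, the 5 genes most alike, and for each list the 2 called genes of smallest adjusted p in each direction. Other genes of the lists and the cell type markers that appear by name were named after their values were seen. The members and lists were chosen with earlier results of these data known. Alternatives were RLE factors, library size alone, library size less its top 100 genes, no filter, a mean of 50 counts, DESeq2 1.42.0, limma-voom (limma 3.58.1), a minimum fold of 2, a replicate block, each library left out, curcumin replicate 3 and untreated replicate 2 both left out (added after seeing the data), length or GC trends removed (loess span 0.3), protein-coding genes only, and pseudogene counts added. Python 3.11.15 with scipy 1.17.1 served for the exact permutation tests.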

Additional observations from a re-analysis of the deposited data

How the results depend on the processing

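With library size alone, the test called 1320 genes higher and 7747 lower, with 3 TRiC subunits higher, 4 prefoldin and phosducin-like genes lower, 1 client higher and 15 lower, and 1 relative higher. Subunits under it were CCT2 −0.28, CCT3 0.33, CCT5 0.38, CCT6A 0.47 and CCT7 0.21, all without a call, and CCT6P3 (−0.06), COMMD1 (−0.13), PRADC1 (−0.61), ACAT2 (−0.12), ACTB (−0.079), ACTG1 (−0.25), VBP1 (−0.17) and MKKS (−0.26) turned sign; the cause was not tested, here and for the other settings. With the top 100 genes kept out of the library total, CCT2 was 0.17 and PRADC1 −0.16, 3 prefoldin and phosducin-like genes were lower, and 5 clients were higher and 8 lower. With the length trend removed, CCT2 was 0.24, COMMD1 −0.40 and PRADC1 −0.69, and 2 prefoldin and phosducin-like genes were lower. Against a minimum fold of 2, 1098 genes were higher and 1048 lower, with 2 subunits higher, 1 client higher and 1 lower, and 1 relative higher and 1 lower; CCT2 (0.525), CCT3 (1.14), CCT5 (1.19), CCT6A (1.28), CCT7 (1.02) and CCT8 (1.32) had no call. Leaving out each library in turn gave 7 to 8 subunits higher, CCT2 from 0.36 to 0.735, TCP1 from 2.43 to 2.97, 0 to 1 prefoldin and phosducin-like genes lower, 5 to 11 clients higher and 1 to 2 relatives lower. Among shares of the summed level, with the median length of the protein-coding transcripts in place of the longest, the differences were 21.97 (TCP1), −3.70 (CCT2), −9.74 (CCT3), −0.41 (CCT4) and −1.69 (CCT5) percentage points. That length takes in short fragments (780 bases for TCP1). With the principal isoform, chosen after seeing the data, TCP1 differed by 15.5 points. Deviations of same-numbered libraries from their group means correlated weakly (r = 0.04, 0.023 and 0.111 for replicates 1, 2 and 3). Libraries of unlike number gave r from −0.085 to 0.039. With 3 libraries a group, these values cannot tell whether the numbers pair the libraries. With a replicate block all 8 subunits were higher, CCT2 by 0.55, and COMMD1 lost its call (edgeR adjusted p = 0.0567). The exact tests cannot go below p = 0.1 with 3 libraries a group, and estimated counts leave the sharing of reads among gene copies unknown.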
